A study of Homo sapiens with 18 samples.

Results

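The genes described here were the well-expressed ZNF genes of IMR90 cells, a widely used line of human fetal lung fibroblasts. They were the genes whose symbol is ZNF followed by digits and an optional single letter, and whose normalized read count averaged at least 300 over the 9 libraries without oxidant. Of the 557 ZNF symbols among the 56269 genes of the deposited table, 155 met this rule. The genes were thus selected on their level without oxidant, which is given below only as a description. At the edge of the rule, ZNF587B, ZNF468 and ZNF689 averaged 303.9, 303.5 and 302.0 and were kept, while ZNF302, ZNF880 and ZNF766 averaged 299.2, 298.7 and 296.9 and were not. Of the 100-base stretches of the longest transcript of ZNF468, 99.1% are also annotated to ZNF320, whose locus overlaps.

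Polyadenylated RNA was sequenced from 18 samples in 6 groups of 3 replicates. The pre-incubation lasted 6 h and was with PBS, cNSF-HA or fNSF-HA, called the 3 arms below. NSF-HA is the very long hyaluronan secreted by naked mole-rat skin fibroblasts. The control preparation, cNSF-HA, had been mixed with heat-inactivated hyaluronidase, whereas fNSF-HA had been partially fragmented by the active enzyme, and both were given at 20 μg/ml. One set of samples was collected at the end of the pre-incubation. The other was then given the oxidant tert-butyl hydroperoxide (tBHP) at 200 μM, with an exposure of 1 h and collection at 6 h counted from its beginning. No group without tBHP was collected at this later time, so tBHP, time and the change of medium cannot be told apart. In bulk RNA, fewer cells of a kind and less RNA per cell also cannot be told apart.

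ZNF symbols mark proteins with zinc fingers, mostly of the C2H2 type, in which a short loop held by a zinc ion reads DNA or, in some proteins, RNA. Many of the human genes lie in clusters, above all on chromosome 19, and carry a KRAB box. The KRAB box binds TRIM28, which brings SETDB1 and HP1 proteins and so silences transposable elements and other targets. Proteins without the box include activators, repressors, subunits of chromatin complexes and factors for ribosomes, RNA and the mitotic spindle.

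The libraries held 20261103 to 26287660 reads assigned to genes. Markers of fibroblasts summed to 1142220 to 1167487 normalized counts without tBHP and 1016966 to 1362005 with it, against 13.7 to 22.7 without and 24.4 to 38.7 with it for 11 markers of other cell types, of which KRT5, SFTPC and CDH5 were at 0 in every library. By limma, 1 of the 9 fibroblast markers was called higher and 3 lower in the PBS arm, with LUM at a log2 change of -1.33. The only marker of other cells above the minimum level, VWF, had 1.32 in the PBS arm and was called higher, at a mean of 6.81 to 9.57 without and 16.1 to 18.5 normalized counts with tBHP in the 3 pre-incubations. Their part in the results was not tested. Replicates lay farther apart in the tBHP groups. On the log2 scale the ZNF genes had a median SD of 0.070 without and 0.185 with tBHP, and 0.076 and 0.206 were the values over the 13686 genes tested. The 8182 genes tested with a mean of at least 300 without tBHP had 0.052 and 0.164, less than the ZNF genes. The libraries fNSF-HA + tBHP replicate 2, cNSF-HA + tBHP replicate 3 and PBS + tBHP replicate 1 stood apart from their replicates, with chi-square values per degree of freedom of up to 64.8, 32.4 and 16.9, against at most 2.55 without tBHP. The median ZNF gene lay 0.18 above the mean of the 9 tBHP libraries in the first, and -0.14 and -0.12 from it in the others.

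The promoters of 5 genes named below are shown to let their responses be read beside their sequence. They cover 250 bases before to 50 after the transcription start in RefSeq (GRCh38.p14), read along the gene's own strand. Capitals mark TGACNNNGC, the core of the antioxidant response element, in ZNF622 (chr5:16465751-16466050, minus strand), ZNF384 (chr12:6689326-6689625, minus) and ZNF292 (chr6:87155315-87155614, plus). In ZNF317 (chr19:9140147-9140446, plus) they mark ACTACAA, part of the sequence bound by ZNF143, and TGANTCA. The latter is a loose form of the AP-1 element with any base in the middle, here T. In ZNF367 (chr9:96418321-96418620, minus) they mark CCAAT on either strand.
ZNF622: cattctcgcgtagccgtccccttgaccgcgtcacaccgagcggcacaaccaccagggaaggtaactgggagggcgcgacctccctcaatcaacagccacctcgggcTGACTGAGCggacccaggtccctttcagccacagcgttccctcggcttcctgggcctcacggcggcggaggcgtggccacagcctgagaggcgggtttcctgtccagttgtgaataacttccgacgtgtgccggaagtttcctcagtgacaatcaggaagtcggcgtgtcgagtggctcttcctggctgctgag
ZNF384: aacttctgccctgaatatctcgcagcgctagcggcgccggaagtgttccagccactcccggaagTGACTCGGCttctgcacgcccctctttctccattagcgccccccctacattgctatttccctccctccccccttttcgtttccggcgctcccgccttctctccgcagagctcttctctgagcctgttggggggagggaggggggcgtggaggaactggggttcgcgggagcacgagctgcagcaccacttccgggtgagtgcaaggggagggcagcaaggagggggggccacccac
ZNF317: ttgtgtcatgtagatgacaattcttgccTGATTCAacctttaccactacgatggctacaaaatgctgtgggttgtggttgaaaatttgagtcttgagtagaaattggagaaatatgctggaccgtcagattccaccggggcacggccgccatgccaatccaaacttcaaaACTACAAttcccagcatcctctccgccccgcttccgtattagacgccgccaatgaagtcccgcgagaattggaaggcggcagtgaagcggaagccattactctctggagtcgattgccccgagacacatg
ZNF367: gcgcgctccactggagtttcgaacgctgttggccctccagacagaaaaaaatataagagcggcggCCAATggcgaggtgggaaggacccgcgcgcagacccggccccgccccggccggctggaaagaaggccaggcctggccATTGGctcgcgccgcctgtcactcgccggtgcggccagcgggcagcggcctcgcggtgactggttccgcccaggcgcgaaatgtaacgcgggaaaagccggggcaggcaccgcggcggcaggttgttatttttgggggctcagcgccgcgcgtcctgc
ZNF292: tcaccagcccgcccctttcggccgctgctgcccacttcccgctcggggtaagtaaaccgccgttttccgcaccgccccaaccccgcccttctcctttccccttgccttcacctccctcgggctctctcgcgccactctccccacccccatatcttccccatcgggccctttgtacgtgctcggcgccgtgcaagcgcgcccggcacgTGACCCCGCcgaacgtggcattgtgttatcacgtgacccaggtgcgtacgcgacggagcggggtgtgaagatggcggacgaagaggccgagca
The same antioxidant letters stood in ZNF622 and ZNF384, which rose after tBHP, and in ZNF292, which fell.

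Among the 155 genes the normalized count without tBHP ranged from 302 to 4261 with a median of 502, and 24 genes reached 1000. The 5 highest were ZNF207 (4261), which loads the checkpoint protein BUB3 at the spindle, ZNF469 (3055), a very large protein mutated in brittle cornea syndrome, ZNF146 (2994), ZNF106 (2948) and ZNF664 (2644). Per kilobase of annotated exon the order differed, with ZNF146 at 722 normalized counts per kb, ZNF664 at 417, ZNF593 at 407 and ZNF622 at 358, against a median of 88.0 and a lowest value of 15.0 for ZNF26. Of the 100-base stretches of the longest transcript of ZNF593, 83.6% are shared with the overlapping gene AL391650.1. GENCODE v29 (GRCh38) matched 154 of the symbols, of which 151 were protein-coding genes and 3 transcribed pseudogenes. On chromosome 19 lay 49 of them (31.8%). A KRAB box pattern was found before the first finger in 61 translated proteins, and 93 had none, a class that also holds proteins whose KRAB box has diverged from the pattern, such as ZNF202, ZNF263 and ZNF282. The median number of C2H2 fingers was 9 and the highest was 35. More than 10% of the 100-base stretches of the longest transcript were shared with another annotated gene for 23 of the genes, and 93 shared none.

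After tBHP, ZNF genes moved in both directions in every pre-incubation. In the PBS arm 81 of the 155 genes passed the test (limma, Benjamini-Hochberg adjusted p under 0.05 over all genes tested), 48 higher and 33 lower, a share of 52.3% beside 51.1% of all genes tested. By direction 31.0% were called higher and 21.3% lower, beside 24.2% and 26.9% of all genes, a difference that was not tested. In the cNSF-HA arm 81 were called, 41 higher and 40 lower, beside 50.8% of all genes (24% and 26.8%). In the fNSF-HA arm 62 were called, 43 higher and 19 lower, which is 40.0% beside 41.9% of all genes (19.2% and 22.7%). The shares called were close to those of all genes tested. With edgeR and TMM scaling the split was 58 higher and 30 lower, 49 and 29, and 52 and 12 in the 3 arms, beside 53.2%, 52.6% and 43.2% of all genes called by edgeR. For edgeR the share of all genes was not split by direction. Without fNSF-HA + tBHP replicate 2, limma called 80 in the fNSF-HA arm, beside 50.6% of all genes. Counted without a model, 58 genes in the PBS arm lay higher in every tBHP library than in every other, and 44 lower, beside 31.8% and 32% of all genes. These counts were 53 and 46 in the cNSF-HA arm, beside 31.4% and 32.3%, and 46 and 19 in the fNSF-HA arm, beside 22.6% and 26.2%. The median log2 change of the ZNF genes was 0.08, 0.02 and 0.07 in the PBS, cNSF-HA and fNSF-HA arms, and that of all genes 0.00, -0.00 and -0.03. These medians moved with single libraries. In the PBS arm the median was 0.02 without PBS + tBHP replicate 2, with 79 genes positive and 76 negative against 87 and 68 with all libraries. In the cNSF-HA arm it was -0.02 without cNSF-HA + tBHP replicate 2, -0.01 without replicate 1 and 0.07 without replicate 3. In the fNSF-HA arm it was 0.11 without fNSF-HA + tBHP replicate 3.

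The heat map of the 155 genes across the 18 libraries is ordered by the mean of the 3 responses, with the largest rises at the top.

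**Figure D1:**
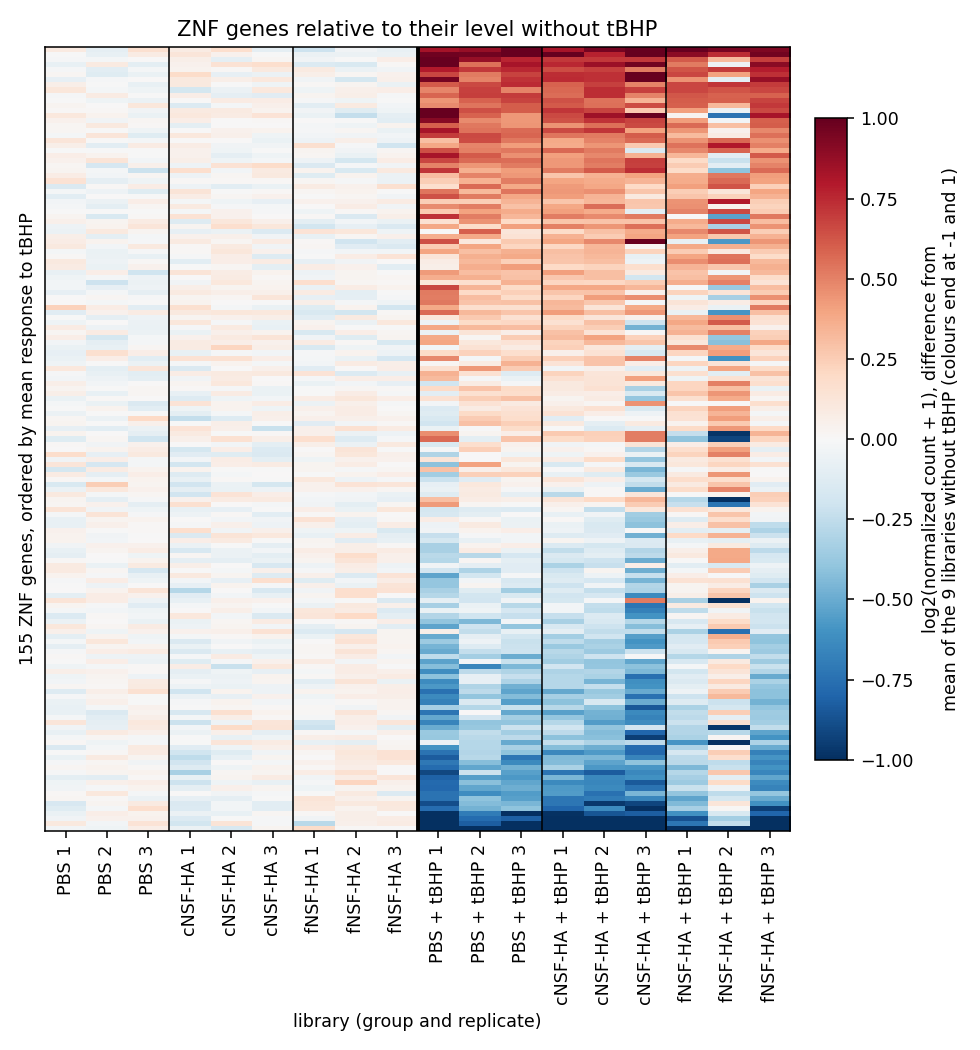
Each row is 1 of the 155 ZNF genes and each column 1 library; colour gives log2(normalized count + 1) minus the gene's mean over the 9 libraries without tBHP, with colours ending at -1 and 1. Differences are small in the 9 columns on the left. For 120 genes the change to the 9 tBHP columns on the right had the same sign in all 3 pre-incubations. The library fNSF-HA + tBHP replicate 2 differs from its neighbours in many rows.

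The 3 responses rest on separate libraries, so they can be set against each other. Of the 155 genes, 29 were called higher in all 3 pre-incubations (18.7%, beside 14.6% of all genes tested) and 16 lower in all 3 (10.3%, beside 17.9%). The sign was the same in all 3 for 120 genes (77.4%, beside 76.3% of all genes), no gene was called in opposite directions, and 53 were called in none (34.2%, beside 35.6% of all genes). Spearman's rho over the 155 genes was 0.95 between the PBS and cNSF-HA responses, 0.83 between PBS and fNSF-HA and 0.82 between cNSF-HA and fNSF-HA, beside 0.89, 0.83 and 0.83 over all genes tested, across genes, which are not independent replicates.

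**Figure D2:**
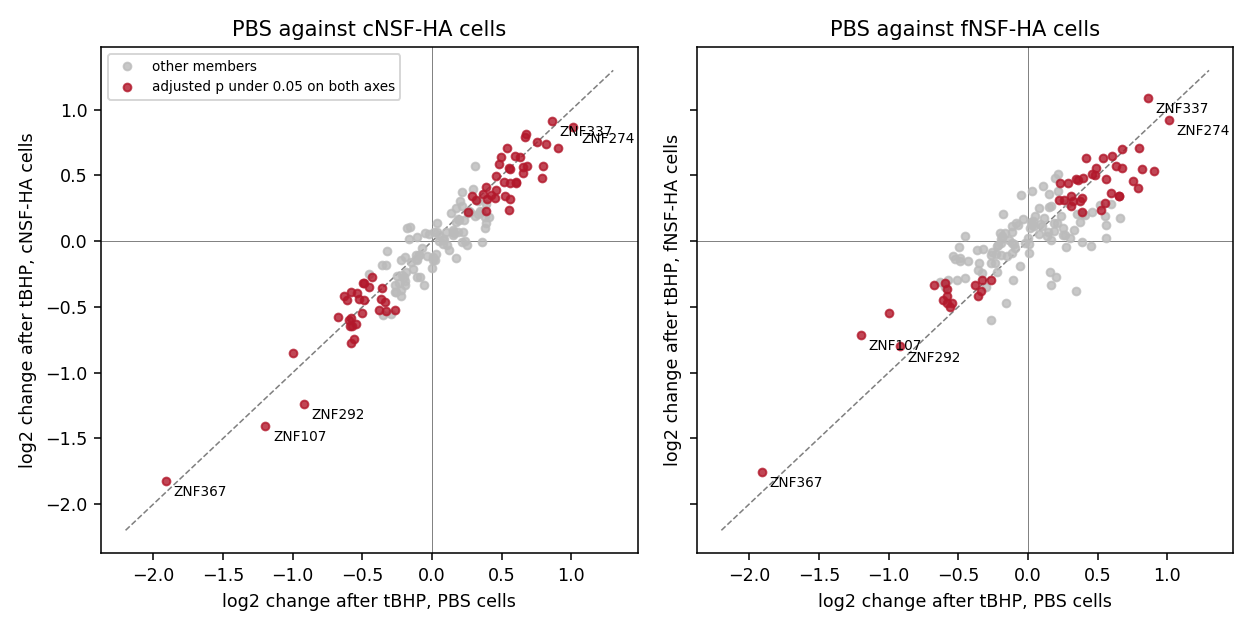
Each point is 1 of the 155 ZNF genes; the x axis gives its log2 change after tBHP in the PBS arm and the y axis that in the cNSF-HA arm (left) or the fNSF-HA arm (right), with the diagonal dashed and genes called on both axes in red. Points follow the diagonal (rho 0.95 left, 0.83 right), and ZNF367 lies lowest in both plots.

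Of the 29 genes called higher in all 3 pre-incubations, 12 had the KRAB pattern, and of the 16 called lower in all 3, 3 had it, against 61 of all 155 ZNF genes. The difference between these sets was not tested. ZNF274, on chromosome 19 (58183029 to 58213562), is a KRAB protein known for binding zinc finger genes and bringing SETDB1 to them. Its normalized count was 497, 472 and 527 in the PBS libraries and 979, 973 and 1071 after tBHP. In the cNSF-HA arm it was 540, 513 and 497 against 1000, 847 and 994, and in the fNSF-HA arm 479, 479 and 478 against 931, 833 and 970. Every tBHP library lay above every library without tBHP. The log2 change was 1.01 ± 0.08 (SE; limma adjusted p = 2.3e-08) in the PBS arm, 0.87 ± 0.08 (1.8e-07) in the cNSF-HA arm and 0.93 ± 0.08 (8.5e-08) in the fNSF-HA arm.

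ZNF337, a KRAB gene on chromosome 20 (25674215 to 25696841), had the largest mean rise. It stood at 433, 381 and 452 in the PBS arm and at 724, 741 and 832 after tBHP, and its log2 change was 0.86, 0.92 and 1.09 in the PBS, cNSF-HA and fNSF-HA arms. No library with tBHP overlapped one without. Of the 100-base stretches of its longest transcript, 77.6% are also annotated to the antisense gene ZNF337-AS1. The library kit does not keep the strand, so reads from these stretches cannot be assigned to 1 of the 2 genes. How the counting treated such reads is not known here.

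ZNF746, known as PARIS, is a KRAB protein that represses PPARGC1A and is a substrate of parkin. It stood at 529, 528 and 536 in the PBS arm and at 1108, 980 and 908 after tBHP, a log2 change of 0.90 ± 0.09 (limma adjusted p = 3.6e-07). The change was 0.71 in cNSF-HA and 0.53 in the fNSF-HA arm. Libraries with and without tBHP did not overlap, and the lowest tBHP library, fNSF-HA + tBHP replicate 2, held 667. ZNF384, a factor of the nuclear matrix that is fused to other genes in leukaemia, rose by 0.80, 0.57 and 0.71 on the log2 scale, and 48.1% of its exon sequence is shared with the overlapping transcript AC125494.1. ZNF622, a factor for the maturation of the large ribosomal subunit, stood at 617, 557 and 579 in the PBS arm and at 963, 873 and 971 after tBHP, a log2 change of 0.68 ± 0.10 (limma adjusted p = 2.5e-05).

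The next 5 rises by rank were ZNF740, ZNF7, ZNF317, ZNF558 and ZNF133. Their log2 changes ranged from 0.45 to 0.71 over the 3 pre-incubations, and all 5 were called in each. They were also called in each with the GC and length trend removed, at 0.31 (ZNF133 in the PBS arm) to 0.80 (ZNF558 in the PBS arm). Of these, ZNF7, ZNF317, ZNF558 and ZNF133 carry the KRAB pattern. In all, 23 genes (14.8%, beside 13% of all genes) rose in every pre-incubation without any overlap between libraries.

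The falls were led by ZNF367, a gene on chromosome 9 (96385941 to 96418329) whose protein has 2 C2H2 fingers. It stood at 428, 423 and 455 in the PBS arm and at 106, 113 and 127 after tBHP. In the cNSF-HA arm it went from 417, 389 and 442 to 108, 119 and 125, and in the fNSF-HA arm from 495, 439 and 436 to 127, 151 and 126. The ranges lay far apart, with the highest tBHP library at 151 and the lowest library without tBHP at 389. The log2 change was -1.91 ± 0.10 (limma adjusted p = 1.2e-10), -1.82 ± 0.10 (2.4e-10) and -1.75 ± 0.10 (4.5e-10), the largest among the 155 genes.

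ZNF292, a large protein mutated in a neurodevelopmental disorder, stood at 1105, 1163 and 1161 in the PBS arm and at 515, 663 and 641 after tBHP. In the cNSF-HA arm with tBHP it held 471, 551 and 379, and in the fNSF-HA arm with tBHP 616, 890 and 534. All 9 tBHP libraries lay below the 9 without, which held at least 1025. The log2 change was -0.92 ± 0.15, -1.24 ± 0.15 and -0.80 ± 0.15. With the trend of all genes with GC content and length removed, it was -0.39, -0.62 and -0.44 and was still called in each. ZNF639 fell by 1.00, 0.85 and 0.54 on the log2 scale, values that were -0.65, -0.46 and -0.32 with that trend removed, and ZNF93, a KRAB protein that represses L1 retrotransposons, fell by 0.67, 0.57 and 0.33. With the trend removed ZNF93 gave -0.30 and -0.28 in the PBS and cNSF-HA arms, both called. Its call in the fNSF-HA arm was lost with the trend removed (-0.15, limma adjusted p = 0.14) and without fNSF-HA replicate 2 (0.055). It was also lost with limma's default array weights (0.22), which did not converge. ZNF93 stood at 323, 345 and 316 in the PBS arm and at 192, 208 and 218 after tBHP.

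The other falls among the 10 largest were ZNF714, ZNF22, ZNF655, ZNF280D, ZNF480 and the pseudogene ZNF271P, with log2 changes from -0.75 to -0.32. In the fNSF-HA arm the calls of ZNF714 and ZNF655 were lost with edgeR (adjusted p = 0.059 and 0.082), when only the groups compared were fitted, and in 4 of 6 fits without 1 library. Without fNSF-HA + tBHP replicate 3 their log2 changes were -0.24 and -0.14. In the PBS arm the call of ZNF714 was lost without PBS replicate 3 and without PBS + tBHP replicate 1 (limma adjusted p = 0.058 and 0.066). With the GC and length trend removed, ZNF714 and ZNF480 lost their calls in the PBS and fNSF-HA arms, ZNF480 and ZNF271P in the cNSF-HA arm, and ZNF655 and ZNF280D in the fNSF-HA arm. ZNF480 and ZNF271P then lay above 0 in the cNSF-HA arm, at 0.029 and 0.028. The calls that were kept had smaller changes, in the PBS arm -0.24 for ZNF22 and ZNF655, -0.17 for ZNF280D and -0.18 for ZNF271P, against -0.55, -0.59, -0.58 and -0.58 before. The fNSF-HA call of ZNF280D was also lost when only the groups compared were fitted (limma adjusted p = 0.058). In all, 14 genes (9.03%, beside 16.9% of all genes) fell in every pre-incubation without overlap between libraries. ZNF280D shares 43.6% of its exon sequence with AC090517.4 and ZNF22 28.6% with CEP164P1. ZNF107, a KRAB gene, was called lower in all 3 (log2 change -1.20, -1.41 and -0.71, and -0.64, -0.84 and -0.36 with the GC and length trend removed) but was not among these 14, since in the fNSF-HA arm the highest tBHP library, at 355, overlapped the lowest without, at 350.

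**Figure D3:**
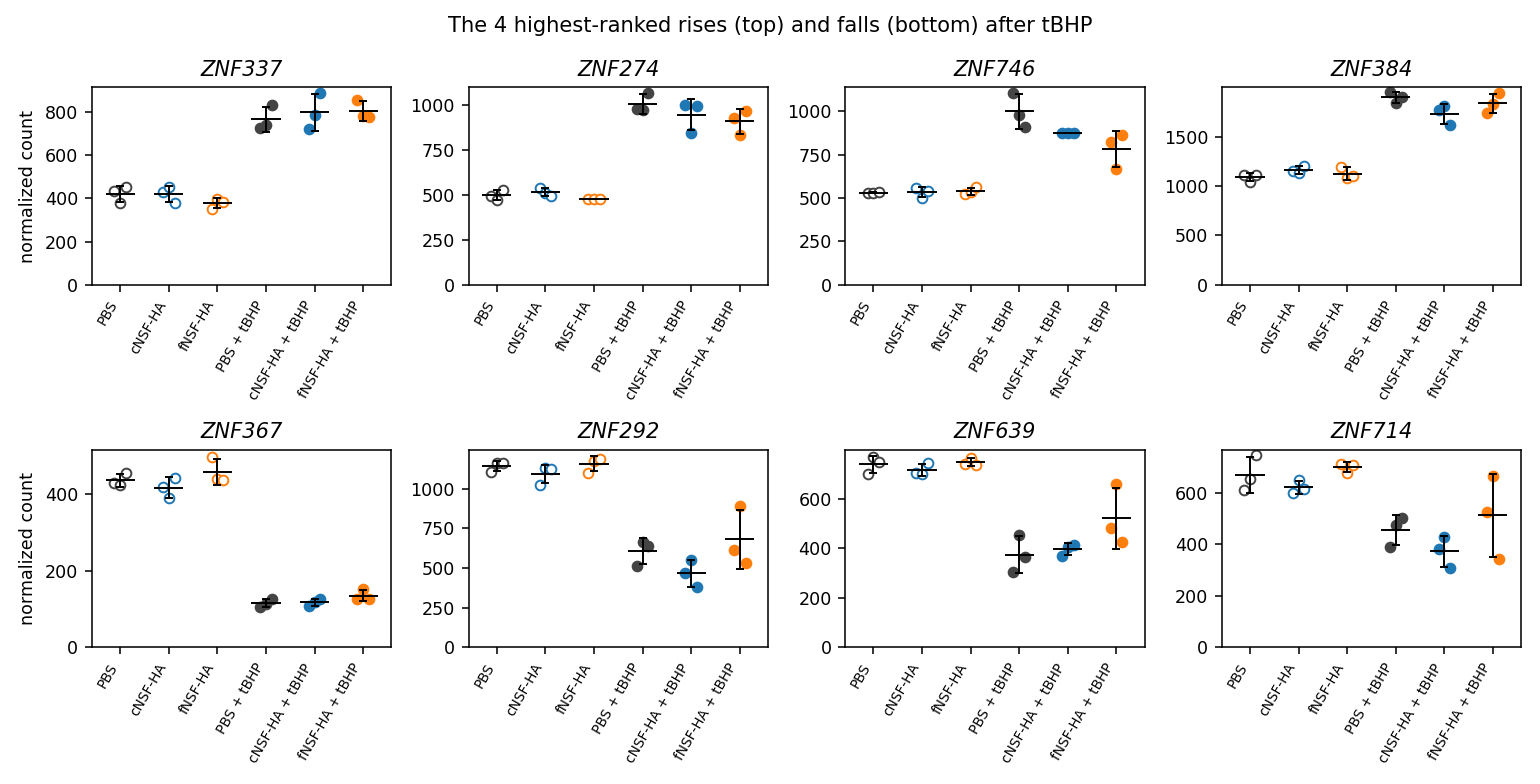
Points give the normalized count in each of the 3 libraries of a group (open without tBHP, filled with tBHP), horizontal lines the mean and bars the SD; each plot has its own axis from 0. All tBHP libraries of ZNF337, ZNF274, ZNF746 and ZNF384 lie above those without tBHP, and all of ZNF367, ZNF292, ZNF639 and ZNF714 below those of the same pre-incubation.

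Of the 5 genes with the highest counts, ZNF469 rose in all 3 arms and ZNF207 was called in none. ZNF469 held 3078, 3078 and 2975 in the PBS arm and 6573, 4765 and 4656 after tBHP, a log2 change of 0.79 (limma adjusted p = 0.00031). It gave 0.48 and 0.40 in the cNSF-HA and fNSF-HA arms, and 0.42, 0.30 and 0.48 in the 3 arms with the GC and length trend removed. Its level in 1 fNSF-HA + tBHP library, at 2930, lay within the range of those without tBHP. ZNF146, a protein made almost wholly of fingers, was called lower in the PBS (-0.43) and cNSF-HA arms (-0.28) and gave -0.15 in the fNSF-HA arm. With the GC and length trend removed it gave -0.13, 0.01 and 0.01 and was called in the PBS arm alone. ZNF664 was called lower in the cNSF-HA arm (-0.39), and with the trend removed in the PBS (-0.29) and cNSF-HA arms (-0.33).

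Chromatin complex subunits moved in both directions. The counts of this and the next lists stand beside 24.2% higher and 26.9% lower of all genes in the PBS arm, 24% and 26.8% in the cNSF-HA arm and 19.2% and 22.7% in the fNSF-HA arm. Of 10 genes in this list, 5 were called higher and 2 lower in the PBS arm, 3 and 3 in the cNSF-HA arm and 3 and 2 in the fNSF-HA arm. ZNF609 stood at 2060, 2059 and 2057 in the PBS arm and at 3217, 2919 and 2976 after tBHP, and rose by 0.56, 0.32 and 0.47 on the log2 scale in the 3 pre-incubations. ZNF532, which works with ZNF592 and ZNF687 in the ZMYND8 complex, was called higher in the PBS (0.38) and fNSF-HA arms (0.30) and gave 0.10 in the cNSF-HA arm (limma adjusted p = 0.41). ZNF592 was called higher in the PBS arm (0.38, limma adjusted p = 0.0012) and gave 0.14 and 0.21 in the other pre-incubations, and the test of the difference between responses was not passed. ZNF512B was called lower in the cNSF-HA (-0.34) and fNSF-HA arms (-0.60). ZNF512B was called lower in all 3 arms when the GC and length trend was removed (-0.59, -0.57 and -0.60), and ZNF532 (0.44, 0.27 and 0.36) and ZNF592 (0.23, 0.15 and 0.16) were called higher in all 3.

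Among 8 genes with roles in RNA, ribosomes or the spindle, 1 was called higher and 1 lower in the PBS arm, 1 and 2 in the cNSF-HA arm and 1 and 1 in the fNSF-HA arm. ZNF622 was the gene called higher in each. ZNF638, which silences unintegrated retroviral DNA, was called lower in the PBS (-0.49) and cNSF-HA arms (-0.32). With the GC and length trend removed it gave -0.10 in the PBS arm, where the call was lost, and 0.12 in the cNSF-HA arm, where it was called higher. ZNF106, which binds RNA, was called lower in the cNSF-HA (-0.55) and fNSF-HA arms (-0.35), values that were -0.25 and -0.22 with that trend removed, when it was also called lower in the PBS arm (-0.14). ZNF207 gave -0.09, -0.10 and -0.05 and was called in none, but gave 0.44, 0.53 and 0.31 and was called higher in each with the trend removed. ZNF598, which marks collided ribosomes with ubiquitin, gave 0.17, 0.15 and -0.33 and was called in none, but was called lower in each with the trend removed (-0.18, -0.19 and -0.34).

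Among 13 sequence-specific activators and repressors, chosen as lacking a KRAB box, 2 were called higher and 1 lower in the PBS arm, 3 and 1 in the cNSF-HA arm and 2 and 1 in the fNSF-HA arm. ZNF263 (0.48, 0.58 and 0.50) and ZNF516 (0.55, 0.24 and 0.29) were higher in all 3, and ZNF148 (-0.38, -0.52 and -0.33) was lower in all 3. ZNF263 is nevertheless known to carry a SCAN domain and a KRAB box, which the pattern did not find. With the GC and length trend removed the direction of ZNF148 turned, to 0.19 in the PBS arm, where it was called higher, and to 0.11 and 0.04 in the others, where it was not called. In the PBS arm ZNF263 and ZNF516 were then at 0.26 and 0.35 and still called. ZNF24 and ZNF281, the most abundant of the list, were called in none, nor was ZNF143 (-0.22, -0.14 and -0.04). ZNF217 gave 0.25 in the PBS arm with a limma adjusted p of 0.054. Of 3 KRAB proteins with a described target among the 155, ZNF274 rose, ZNF93 fell, and ZNF445, which protects imprints, gave 0.21, -0.00 and 0.14 and was called in none. With the trend removed, ZNF24, ZNF281, ZNF217 and ZNF445 were called higher in each arm, at 0.18 to 0.43, and ZNF143 in none.

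Genes with and without the KRAB box, and on and off chromosome 19, were called in both directions. In the PBS arm 20 of 61 genes with the KRAB pattern were called higher and 9 lower, and of the 93 without it 28 and 24, beside 24.2% and 26.9% of all genes. The counts in the cNSF-HA arm were 16 and 11 with the pattern and 25 and 29 without, beside 24% and 26.8% of all genes. In the fNSF-HA arm they were 24 and 3 with the pattern and 19 and 16 without, beside 19.2% and 22.7%. On chromosome 19, 16 of 49 genes were called higher and 9 lower in the PBS arm, against 32 and 24 of 105 elsewhere. These counts were 13 and 14 against 28 and 26 in the cNSF-HA arm, and 17 and 3 against 26 and 16 in the fNSF-HA arm. These classes differ in base composition: the median GC content of the longest transcript was 43.1% with the KRAB pattern and 48.0% without.

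Base composition moved with the response. Over 154 genes Spearman's rho between GC content and the log2 change was 0.71 in PBS, 0.68 in cNSF-HA and 0.35 in the fNSF-HA arm, and 0.52, 0.52 and 0.24 over the 12532 genes with a GC value. In the fNSF-HA arm rho was 0.61 without fNSF-HA + tBHP replicate 2 and 0.06 without replicate 3. With genes split by the terciles of all genes, 5 of the 71 ZNF genes of low GC were called higher in the PBS arm and 29 lower, beside 8.45% and 53.6% of all low-GC genes. Of the 45 of middle GC, 22 were called higher and 3 lower (48.9% and 6.67%), beside 28.8% and 22.8% of all genes of middle GC. Of the 38 of high GC, 21 and 1 were called (55.3% and 2.63%), beside 37.3% and 6.61%. The 29 genes called higher in all 3 had a median GC of 52.0% and the 16 called lower 39.7%. When the trend with GC and length over all genes was taken out, 97 ZNF genes were called in the PBS arm, 73 higher and 24 lower, beside 58.1% of all genes. The counts were then 74 and 25 in the cNSF-HA arm (56.8% of all genes called) and 75 and 18 in the fNSF-HA arm (56.9%). The shares of all genes called in this fit were not split by direction, so these splits of the ZNF genes have no such background. Of the genes called lower before, 7 of 33, 13 of 40 and 1 of 19 in the 3 arms had turned to a positive change (21.2%, 32.5% and 5.26%, beside 10.5%, 10.5% and 0.746% of all genes called lower). Of those called higher, 1 of 48 in the PBS arm had turned and none in the others. The part of GC content in the response was not tested.

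**Figure D4:**
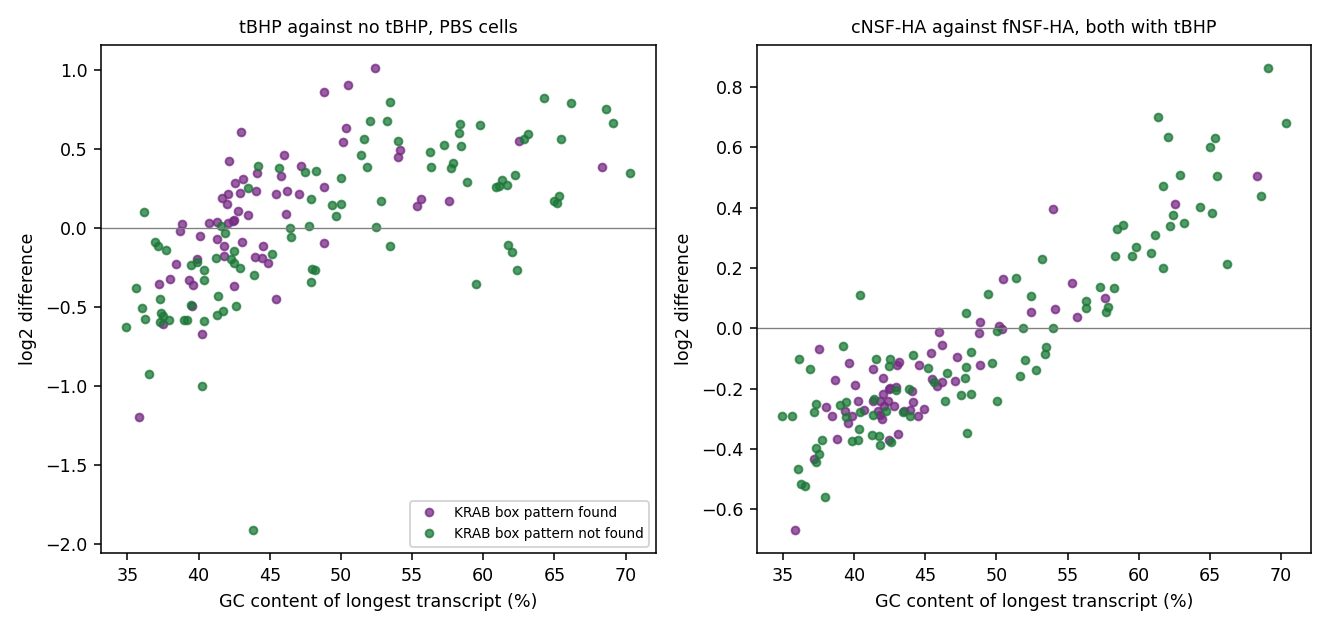
Each point is 1 of 154 ZNF genes; the x axis gives the GC content of its longest transcript in percent and the y axis its log2 difference after tBHP in the PBS arm (left) or between the cNSF-HA and fNSF-HA arms, both with tBHP (right), coloured by the KRAB box pattern. Differences rise with GC content in both plots (rho 0.71 and 0.84), for genes with and without the pattern.

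The low-GC tercile was also split by the KRAB pattern. Of 34 low-GC genes with the KRAB pattern, 5 were called higher and 8 lower in the PBS arm, and of 37 without it none was called higher and 21 lower. Of all low-GC genes 8.45% were called higher and 53.6% lower there. In the cNSF-HA arm the counts were 4 and 8 against 0 and 23, beside 8.57% and 52.5% of all low-GC genes. In the fNSF-HA arm they were 11 and 3 against 0 and 12, beside 11.9% and 37.1%. The median log2 change in the PBS arm was -0.04 with the pattern and -0.43 without, at a median GC of 41.7% and 39.9%. The difference between these classes was not tested.

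No ZNF gene passed the limma test between pre-incubations without tBHP in the fit of all 18 libraries. That fit used 1 spread per gene over all groups, although the median SD of the ZNF genes was 0.070 without and 0.185 with tBHP. Without tBHP 0 of 155 were called by limma between cNSF-HA and fNSF-HA, cNSF-HA and PBS, or fNSF-HA and PBS cells (0%, 0% and 0% of all genes), and 2, 0 and 0 had an unadjusted limma p under 0.05 (1.29%, 0% and 0%, beside 1.51%, 0.921% and 0.796% of all genes). DESeq2 and edgeR also called 0 in each, beside 0% of all genes except 0.0219% by DESeq2 between fNSF-HA and PBS. Libraries did not overlap for 20 genes higher and 23 lower when cNSF-HA was set against fNSF-HA, beside 7.91% and 17.1% of all genes. For cNSF-HA against PBS these counts were 19 and 11 (6.89% and 8.33% of all genes), and for fNSF-HA against PBS 10 and 4 (9.17% and 4.82%). When the 6 libraries of the cNSF-HA and fNSF-HA arms were fitted alone, 15 were called, 4 higher and 11 lower in the cNSF-HA arm, beside 7.16% of all genes. Spearman's rho between GC content and this difference was 0.69 over 154 ZNF genes and 0.56 over all genes. The smallest of these adjusted p belonged to ZNF469 (0.0081), ZNF24 (0.017) and ZNF316 (0.017). In the fit of all 18 libraries, where none was called, the smallest p-values belonged to ZNF300, ZNF354C, ZNF841, ZNF268 and ZNF76. ZNF300 held 400, 488 and 435 in the cNSF-HA arm and 477, 549 and 538 in the fNSF-HA arm, ranges that overlapped. ZNF841 held 401, 438 and 393 against 340, 367 and 369, which did not.

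After tBHP more ZNF genes had a negative than a positive difference of cNSF-HA minus fNSF-HA, and none passed the limma test. The log2 difference was negative for 106 genes and positive for 49, with a median of -0.14 beside -0.03 over all genes. Limma and edgeR called 0 of 155 (0% and 0% of all genes), with the smallest limma adjusted p at 0.098, while 76 (49% beside 32.2% of all genes) had an unadjusted limma p under 0.05 and 74 an unadjusted edgeR p under 0.05. Libraries did not overlap for 5 genes higher and 24 lower, beside 5.07% and 8.29% of all genes. DESeq2 called 19, of which 5 were higher and 14 lower, beside 6.74% of all genes. The genes with the smallest p were ZNF800, ZNF428, ZNF788, ZNF292 and ZNF107. ZNF800 held 338, 286 and 297 in the cNSF-HA arm and 413, 608 and 368 in the fNSF-HA arm, without overlap, a log2 difference of -0.56 ± 0.15, which was -0.35 without fNSF-HA + tBHP replicate 2 and -0.28 with the GC and length trend removed. ZNF428 held 467, 494 and 720 against 336, 238 and 482, with overlap, a difference of 0.70 ± 0.20, which was 0.45 without that library and 0.31 with the trend removed.

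This difference moved with GC content, whose part in it was not tested. Spearman's rho with GC was 0.84 over 154 ZNF genes and 0.79 over all genes. The median log2 difference was -0.27 for low-GC ZNF genes, -0.11 for middle GC and 0.33 for high GC. With the GC and length trend taken out, the median became -0.02, with 65 positive and 89 negative, and 0 were called, beside 0.0399% of all genes. The values of single libraries were as follows. In fNSF-HA + tBHP replicate 2 the low-GC ZNF genes lay 0.39 above, and the high-GC ones 0.59 below, their mean over the 9 tBHP libraries. Without that library the median was -0.08, rho was 0.74 and limma called 0. Without fNSF-HA + tBHP replicate 3 instead, limma called 88, of which 28 were higher and 60 lower, beside 40.8% of all genes.

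**Figure D5:**
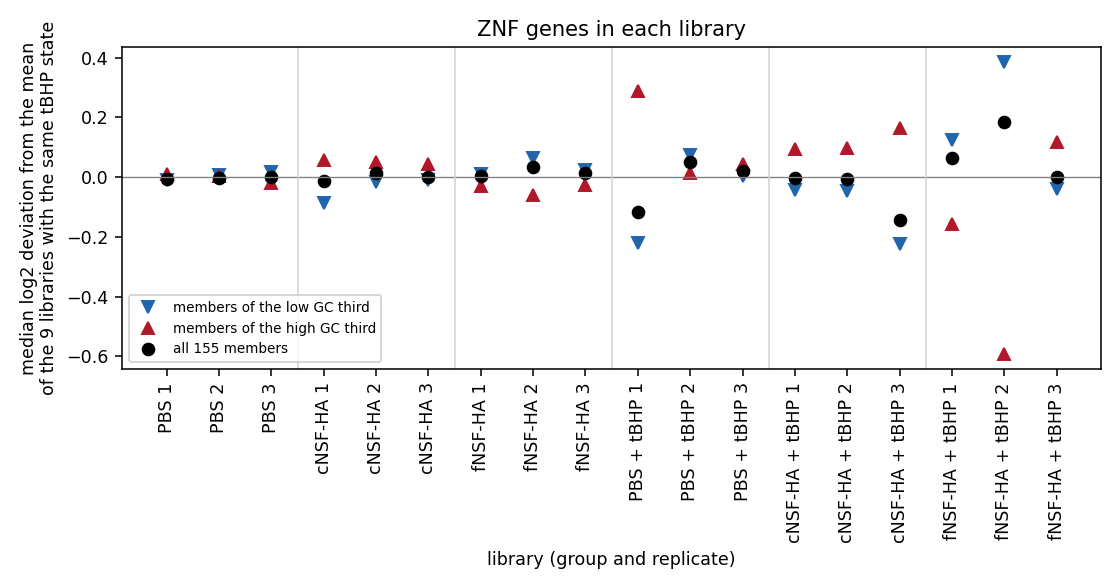
The y axis gives, for each library on the x axis, the median log2 difference to the average of all 9 libraries sharing its tBHP state, for all 155 ZNF genes (circles), the low-GC tercile (downward triangles) and the high-GC tercile (upward triangles). The terciles part most in fNSF-HA + tBHP replicate 2, at 0.39 and -0.59.

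Against PBS after tBHP, limma called no ZNF gene for either hyaluronan preparation. Between the cNSF-HA and PBS arms 0 genes were called by limma (0% of all genes), DESeq2 (0.0365%) or edgeR (0%), and 11 had an unadjusted limma p under 0.05 (7.1% beside 8.64% of all genes). The median log2 difference was -0.05, and it was -0.01 without cNSF-HA + tBHP replicate 3 and -0.08 without PBS + tBHP replicate 1. Libraries did not overlap for 4 genes higher and 9 lower with cNSF-HA, beside 4.57% and 5.01% of all genes. The smallest p-values belonged to ZNF217, ZNF333, ZNF516, ZNF292 and ZNF236. ZNF516, a subunit of LSD1 complexes, held 1284, 1218 and 1027 in the cNSF-HA arm and 1491, 1374 and 1257 in the PBS arm. Between the fNSF-HA and PBS arms limma called 0 (0.139% of all genes, 0.117% higher and 0.0219% lower) with 51 at an unadjusted p under 0.05 (32.9% beside 22.7% of all genes), edgeR called 0 (0.263% of all genes) and DESeq2 9, 6 higher and 3 lower, beside 3.23% of all genes. The median log2 difference of fNSF-HA minus PBS was 0.07, with 94 genes positive and 61 negative, and it was 0.02 without fNSF-HA + tBHP replicate 2 or PBS + tBHP replicate 1, 0.11 without PBS + tBHP replicate 2 and 0.13 without fNSF-HA + tBHP replicate 3. It also moved with GC content, with a rho of -0.85 over 154 ZNF genes and -0.75 over all genes, and medians of 0.21 for low-GC and -0.32 for high-GC ZNF genes. The smallest p-values belonged to ZNF28, ZNF746, ZNF777, ZNF268 and ZNF761. Libraries did not overlap for 15 genes higher and 9 lower with fNSF-HA, beside 6.86% and 5.11% of all genes. ZNF28 held 304, 354 and 264 in the fNSF-HA arm and 229, 196 and 225 in the PBS arm, without overlap. Without fNSF-HA + tBHP replicate 3, 68 were called in this comparison, beside 29.4% of all genes, and without replicate 2 none.

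No ZNF gene passed the limma interaction test of whether the response to tBHP differed between pre-incubations. For cNSF-HA against PBS, fNSF-HA against PBS and cNSF-HA against fNSF-HA 0 of 155 were called (0%, 0% and 0% of all genes), also by edgeR (0% in each) and DESeq2 (0%, 0.0438% and 0%), and 2, 17 and 6 had an unadjusted limma p under 0.05 (1.29%, 11% and 3.87%), beside 4.06%, 6.88% and 3.89% of all genes. The smallest p-values belonged to ZNF516, ZNF384 and ZNF592 in the first, ZNF761, ZNF721 and ZNF746 in the second, and ZNF841, ZNF107 and ZNF160 in the third. ZNF721 gave a log2 change of -0.45 in the PBS arm and 0.04 in the fNSF-HA arm, and ZNF160 gave 0.16 in cNSF-HA and 0.48 in the fNSF-HA arm. These values were 0.05 and 0.34 for ZNF721, and 0.46 and 0.65 for ZNF160, with the GC and length trend removed.

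Motif letters in the promoters were counted on both strands for the 131 members found in RefSeq's promoter set. The set as a whole holds 35114 promoters, of genes at any level and not matched to the members in base composition. Members were counted once per symbol, and the differences were not tested. ACTACAA was found in 9.16% of the members and in 2.77% of all 35114 promoters, and TGACGTCA, the cAMP response element, in 6.87% and 1.85%. TGANTCA was found in 4.58% and 7.71%, TGACNNNGC in 14.5% and 13.3%, TGATGNAA in 0.763% and 3.62%, CCAAT in 38.2% and 34.6%, and TTTGGCGC in 1.53% and 0.652%. Of the 12 members with ACTACAA 4 were called higher and 0 lower in the PBS arm, against 38 and 26 of the 119 without, beside 24.2% and 26.9% of all genes tested. Of the 19 with TGACNNNGC 9 were called higher and 2 lower, against 33 and 24 of the 112 without, beside the same shares of all genes, at a median transcript GC of 48.8% and 44.1%.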

How the data were processed

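RNA of 18 IMR90 cultures was read as 100 nt single ends from a kit that does not keep the strand. Per the labels, the authors used Trimmomatic 0.32, STAR 2.5.2b, featureCounts (Subread 1.5.0-p3), DESeq2 and GRCh38.p7. The annotation release is not given in the sources used here. The deposited values are a signal, the reads per gene divided by the library's DESeq2 size factor. Whole reads were recovered for 100% of values in every library, with a largest deviation of 5.6e-05 of a read, and edgeR and DESeq2 were run on them as alternatives. The deposited table also holds the authors' p-values and q-values and a score that ranks them, which were not used.

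Groups and replicate numbers came from the labels. The study describes its replicates as biological. Genes with a mean of at least 10 (13686) were tested by limma 3.58.1 (R 4.3.3) on log2(value + 1), with 1 coefficient per group over all 18 libraries, an intensity trend and Benjamini-Hochberg adjustment at 0.05 over all genes. Fold changes are on this scale, which understates changes of low genes. Alternatives used edgeR 4.0.16, DESeq2 1.42.0, other pseudocounts, filters and scalings, array weights, the replicate block, the groups compared alone, removal of a GC and length trend, and leaving out each library. For these alternatives the shares of all genes called are for both directions together.

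The ZNF genes and the lists of roles were chosen with earlier results of these data known. Genes were named by rule. The rule took the 10 largest rises and falls called in all 3 pre-incubations without overlap. It also took the highest and lowest levels and the 3 genes just under the threshold. The 5 smallest p in each hyaluronan comparison, 3 in each interaction and the most abundant of each role list were added. Of the partners of KRAB proteins, TRIM28 and SETDB1 were named in any case, with the 3 others of smallest p after tBHP in the PBS arm. Other genes named (such as ZNF263 and ZNF143, and values of ZNF107 after tBHP) were picked after their values were seen. Annotation was GENCODE v29 (GRCh38) and promoters were RefSeq (GRCh38.p14). Only letters, not binding, were searched. Figures used matplotlib 3.10.9.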

Additional observations from a re-analysis of the deposited data

How the results depend on the processing

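The number of ZNF genes called after tBHP was 81, 81 and 62 in the PBS, cNSF-HA and fNSF-HA arms. DESeq2 gave 83, 80 and 65 (52.5%, 52% and 43.1% of all genes), and edgeR gave 88 (58 higher and 30 lower), 78 (49 and 29) and 64 (52 and 12), beside 53.2%, 52.6% and 43.2% of all genes. Fitting only the groups compared gave 92, 85 and 40 in the PBS, cNSF-HA and fNSF-HA arms (55.9%, 54.4% and 31.2% of all genes), and 15 (7.16%) between the cNSF-HA and fNSF-HA arms without tBHP. DESeq2 called 19 between the cNSF-HA and fNSF-HA arms and 9 between the fNSF-HA and PBS arms after tBHP, where limma and edgeR called 0. Without a filter on low values the counts after tBHP were 73, 66 and 48, beside 21.8%, 21.1% and 16.4% of 31441 genes. Choosing by the level in the tBHP libraries gave 167 genes (142 shared), of which 95, 92 and 78 were called, beside 51.1%, 50.8% and 41.9% of all genes. Leaving out single libraries gave 68 to 76 genes in the PBS arm (43.7% to 49.2% of all genes), 60 to 70 in the cNSF-HA arm (43.3% to 48%) and 45 to 80 in the fNSF-HA arm (34.9% to 50.6%), the highest without fNSF-HA + tBHP replicate 2. It gave 0 to 88 between the cNSF-HA and fNSF-HA arms after tBHP and 0 to 68 between the fNSF-HA and PBS arms, both highest without fNSF-HA + tBHP replicate 3 (40.8% and 29.4% of all genes), and 1 (1.25%) in the latter without PBS + tBHP replicate 2. It gave 0 to 0 in the other hyaluronan comparisons and in the interactions. The cause was not tested.

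Array weights by limma's default method did not converge. They gave 109, 118 and 45 genes after tBHP (64.4%, 72% and 28% of all genes), 11 between the cNSF-HA and PBS arms after tBHP (7.7%), 1 between the cNSF-HA and fNSF-HA arms without tBHP, and 1 in the interaction of cNSF-HA with PBS (0.964% and 1.75%). The gene-by-gene method, chosen after seeing the data, gave 105, 108 and 114 (62.8%, 66% and 71.6%), with 76 (38.6%) between the cNSF-HA and fNSF-HA arms and 45 (20.4%) between the fNSF-HA and PBS arms after tBHP, and 13 (7.61%) and 13 (7.09%) in the interactions of fNSF-HA with PBS and of cNSF-HA with fNSF-HA. By this method fNSF-HA + tBHP replicate 1 had a weight of 6.79 and replicates 2 and 3 had 0.102 and 0.236. By the default method the weight of replicate 1 was 0.00016.

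With the GC and length trend removed, 7, 13 and 1 of the genes called lower in the PBS, cNSF-HA and fNSF-HA arms were above 0, among them ZNF480 (0.029) and ZNF271P (0.028) in the cNSF-HA arm and ZNF148 in each. With the replicate number as a block, 86, 82 and 67 genes were called after tBHP, beside 52.8%, 52.4% and 43.4% of all genes, and 0 in each hyaluronan comparison, beside 0.446% between the fNSF-HA and PBS arms after tBHP and 0% in the others. Of 45 correlations of deviations between samples of the same number, 7 were over 0.1, and the highest was 0.33. In 2 of 15 pairs of groups every sample was closest to the one of its own number. Whether the numbers pair the samples was not tested.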

Other observations

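Of 24 genes of the machinery that KRAB proteins recruit, 5 were called higher and 12 lower by limma after tBHP in the PBS arm, 4 and 13 in the cNSF-HA arm and 5 and 11 in the fNSF-HA arm. Of all genes tested, 24.2% and 26.9%, 24% and 26.8%, and 19.2% and 22.7% were called higher and lower in the 3 arms. SUV39H2, a histone methyltransferase of heterochromatin, held 390, 429 and 455 normalized counts in the PBS arm and 166, 197 and 171 after tBHP, without overlap, and fell by 1.25, 1.18 and 0.94 on the log2 scale in the 3 pre-incubations. CBX3, an HP1 protein, fell by 0.79, 0.54 and 0.54, and HDAC2, a histone deacetylase, fell by 0.48, 0.30 and 0.29. SETDB1, the methyltransferase that TRIM28 brings, rose by 0.40, 0.38 and 0.35. TRIM28 itself gave 0.13, 0.24 and -0.07 and was called in none. SUV39H2, CBX3 and HDAC2 were named for having the smallest p in the PBS arm. Values with the GC and length trend removed are not given for these genes or for the families below.

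Other families of zinc finger genes, taken by symbol, were counted in the same way and beside the same shares of all genes. Of 16 ZSCAN genes, which carry a SCAN domain, 8 were called higher and 0 lower by limma after tBHP in the PBS arm, 6 and 1 in the cNSF-HA arm and 7 and 0 in the fNSF-HA arm. Of 7 ZKSCAN genes, which carry both a KRAB box and a SCAN domain, 6, 3 and 5 were called higher and 0 lower in each. Of 34 ZBTB genes, 8 were called higher and 9 lower in the PBS arm, 7 and 9 with cNSF-HA and 6 and 7 with fNSF-HA.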
